A study of Mus musculus with 12 samples.

Results

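Potassium channel subunits are described here across ventricular tissue of male C57BL/6N mice, wild type, from which the atria had been removed. Members are the rows of the count table whose symbol is Kcn, then letters, then digits, with 10 or more counts in at least 3 of the 12 libraries. Of 92 such symbols among the 54949 features of the table, 47 met that minimum: 19 voltage-gated pore subunits, 8 inward rectifier subunits, 6 two-pore subunits, 6 calcium-activated subunits and 8 auxiliary subunits. The study compared mice made to develop heart failure with a preserved ejection fraction (a stiff, poorly filling ventricle that still ejects normally) with control mice. The treatment was a diet rich in fat plus L-NAME, a blocker of nitric oxide synthesis given at 0.5 g/L in drinking water, for 5 weeks from 8 weeks of age, and control mice had a normal diet and plain water. The labels contradict each other for every sample: libraries named HF-1 to HF-6 are titled as controls on normal diet, and libraries named con-1 to con-6 are titled as the model with fat diet and L-NAME. The groups are therefore called HF-named and con-named (6 libraries each), every fold change divides HF-named by con-named values, and from these labels it cannot be told which group was treated. The labels list 6 samples per group, where the design text gives 5. Nothing says that libraries came from different mice, and the p-values then measure only how these samples vary, which may be technical.

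Potassium channels carry the outward currents that repolarize cardiac muscle and the inward rectifier current that holds its resting potential. Voltage-gated subunits assemble as tetramers of pore proteins and set the speed of repolarization, and auxiliary subunits alter their gating, trafficking or stability. Inward rectifiers include the strong rectifiers of the resting potential, the channels closed by intracellular ATP, and those opened by G proteins downstream of acetylcholine. In the adult mouse ventricle, repolarization is known to rest mainly on fast transient outward and slow delayed currents, while the rapid and slow delayed rectifiers that dominate in larger mammals are small.

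Each library held 14443186 to 22048689 counts, and 3 counts, taken as the floor, correspond to 0.136 to 0.208 CPM (counts-per-million). The members together summed to 1245 to 1350 CPM, at raw library totals, in the HF-named libraries (median 1320) and 1290 to 1386 in the con-named libraries (median 1356), so their summed share overlapped between the groups. Mitochondrial transcripts took 25.2 ± 1.19% of counts in the HF-named and 22.4 ± 1.10% in the con-named libraries (SD, n = 6 each). Ventricular identity was checked with 4 atrial markers. Sln was at 0 to 1.06 CPM in HF-named and at 0 to 0.0484 CPM in con-named libraries, and Myl7 was at 0 to 1.79 CPM in HF-named and at 0 to 0.241 CPM in con-named libraries. Myl4 was at 0.869 to 4.19 CPM in HF-named and at 0.934 to 2.53 CPM in con-named libraries, and Nppa was at 21.8 to 188.1 CPM in HF-named and at 62.0 to 125.9 CPM in con-named libraries. HF-named replicate 1 had the highest value of all 12 libraries for each of the 4, and without it the same 7 members passed the test. The cardiomyocyte gene Myh6 had medians of 32824 CPM in HF-named and 29944 CPM in con-named libraries, a difference that did not pass (adjusted p = 0.243, edgeR). Of the 6 cardiomyocyte markers read, 1 was called higher and 2 lower, as given below.

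Levels of different members are compared per length, in the FPKM deposited by the authors (counts scaled by gene length and library total). They spanned a wide range, and a few genes held most of the sum. The auxiliary subunit Kcnip2, the two-pore channel Kcnk3 and the ATP-sensitive pore Kcnj11 led with mean levels over the 12 libraries of 60.2, 57.2 and 47.5 FPKM, and these 3 genes made 49.99% of the members' summed FPKM. Kcng2 followed at 22.7 FPKM, Kcnj8 at 20.9 FPKM, Kcnh2 at 18.7 FPKM, Kcnj5 at 17.5 FPKM, Kcnj3 at 10.9 FPKM and Kcna5 at 10.2 FPKM. In all, 9 members averaged 10 FPKM or more, 23 averaged 1 FPKM or more and 24 averaged less than 1 FPKM. The ranges over libraries of neighbours in this order overlapped for Kcnip2 and Kcnk3, at 55.4 to 59.7 FPKM and 52.3 to 64.4 FPKM in the HF-named libraries. Kcnj11, at 47.3 to 50.2 FPKM in the HF-named and 42.8 to 52.1 FPKM in the con-named libraries, lay below Kcnip2 in both groups.

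**Figure D1:**
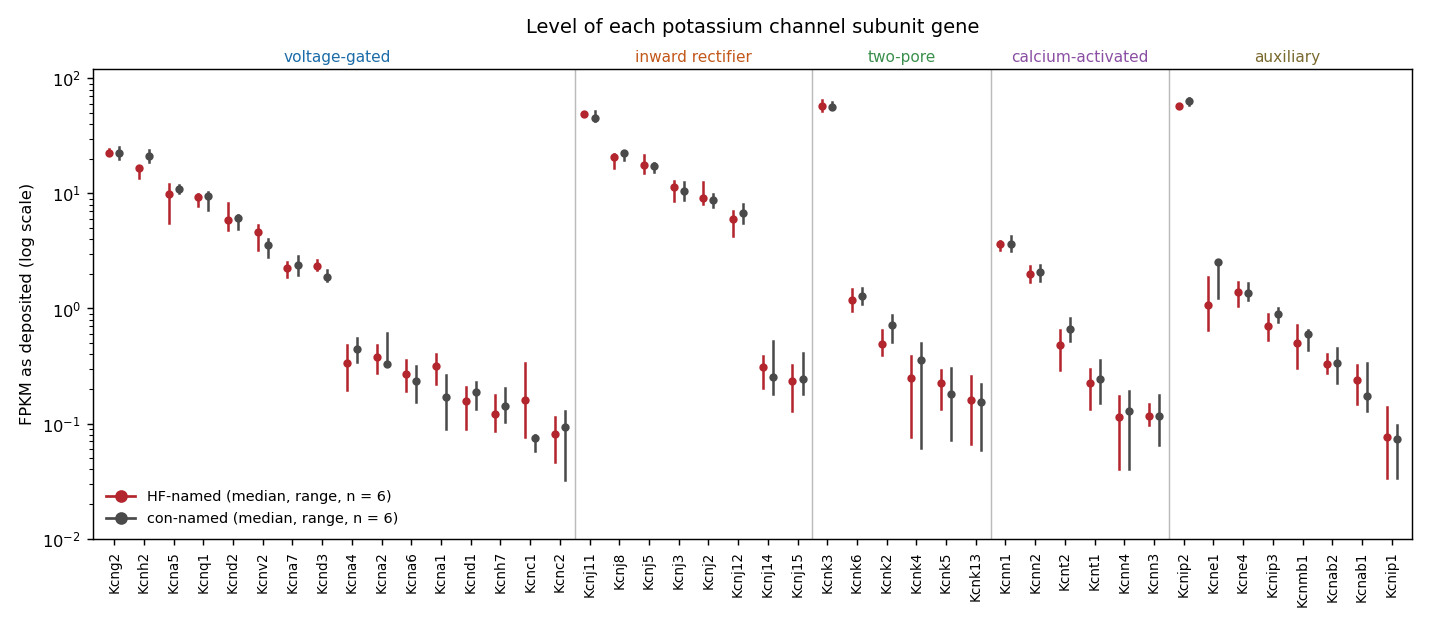
Level of 44 of the 47 members in FPKM as deposited (log scale), ordered by class and by mean level, with the median as a point and the range over 6 libraries as a bar, HF-named in red to the left of con-named in grey. Kcnip2, Kcnk3 and Kcnj11 lie above all other members drawn, and Kcnip1 has the lowest mean level, 0.0735 FPKM.

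By class, the inward rectifiers held the largest share of the summed FPKM, with a median of 35.0% (33.7 to 36.4%) in HF-named and 33.1% (32.7 to 34.6%) in con-named libraries. The voltage-gated subunits, although more numerous, held a median of 25.6% in HF-named and 25.9% in con-named libraries. Auxiliary subunits took 18.8% in HF-named and 20.4% in con-named libraries, two-pore subunits took 18.5% in HF-named and 17.7% in con-named libraries, and calcium-activated subunits took 2.01% in HF-named and 2.06% in con-named libraries. These shares are descriptions, and no test was made of them.

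Of the 47 members, 44 passed the filter on low counts and were tested with edgeR's quasi-likelihood test, adjusted over all 15114 features tested. At an adjusted p under 0.05, 7 of the 44 were called (15.9%), where 13.3% of all features were. Of these, 5 were higher in the HF-named libraries, where 8.28% of all features were, and 2 were lower, where 5.05% of all features were. The share of members called is thus close to that of all features and is no result about potassium channels as a group. The median log2 fold change of the tested members was 0.10, with 27 positive and 17 negative values, beside a median of -0.01 over all features. In CPM the groups did not overlap for 2 members. Kcnd3 had all HF-named libraries above, as in 3.41% of all features. Kcnh2 had all HF-named libraries below, as in 1.95% of all features.

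The calls lay in the voltage-gated class (4 higher and 1 lower of 19 tested), the inward rectifiers (1 higher of 8) and the auxiliary subunits (1 lower of 7). These are 26.3%, 12.5% and 14.3% of those tested, where 13.3% of all features were called. At that share, classes of so few genes can hold no call. None of the 4 two-pore or the 6 calcium-activated subunits tested passed with edgeR, although Kcnk2 and Kcnt2, one in each class, had an unadjusted p under 0.05, and limma-voom and DESeq2 called none of them either. The median log2 fold change was 0.11 for voltage-gated, 0.16 for inward rectifier, 0.04 for two-pore, 0.05 for calcium-activated and -0.03 for auxiliary subunits. Whether classes differ in their calls or medians was not tested.

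**Figure D2:**
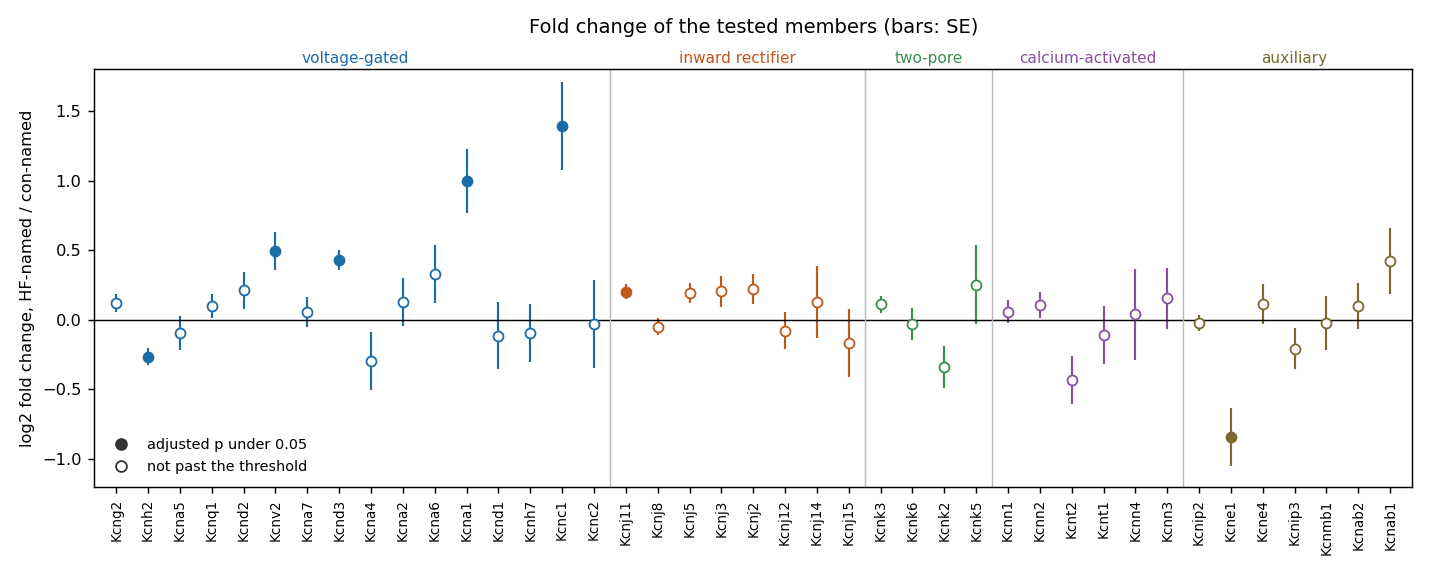
Log2 fold change, HF-named over con-named, of 41 of the 44 tested members by class (bars: standard error), with filled points for an adjusted p under 0.05 (edgeR). The filled points are Kcnc1, Kcna1, Kcnv2, Kcnd3 and Kcnj11 above 0, and Kcnh2 and Kcne1 below 0.

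The transient outward current, which repolarizes the mouse ventricle early, is carried by pores of Kcnd2 and Kcnd3 (fast) and Kcna4 (slow), with Kcnip2 as the cytosolic subunit that brings the fast pores to the membrane. Of these 4 genes, Kcnd3 rose and the other 3 did not pass. Kcnd3 (chromosome 3, 105452330 to 105674002, plus strand, mm10) was at 20.4, 23.6 and 26.2 CPM as the lowest, median and highest HF-named library, against 16.2, 17 and 20.4 CPM in the con-named libraries. Every HF-named library lay above every con-named one in CPM, although HF-named replicate 3 and con-named replicate 3, at 20.43 and 20.42 CPM, nearly touched. In FPKM, at raw library totals, Kcnd3 was at 2.16 in HF-named replicate 3 and 2.18 in con-named replicate 3, so the groups overlapped. Its log2 fold change was 0.43 ± 0.07 (SE; 1.34-fold; edgeR adjusted p = 0.00182), and the call held with any 1 library left out (adjusted p up to 0.00614). Kcnd3 shares 1.72% of its exon bases with the antisense gene Kcnd3os, and since the counting is not stated to use strand, reads of that stretch cannot be assigned to either.

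Kcnd2, the other fast pore, was the more abundant of the pair at a mean of 6.06 FPKM, beside 2.12 FPKM for Kcnd3. It had 25.4, 30.8 and 44.8 CPM (lowest, median, highest) in HF-named and 25.1, 29.3 and 32.5 CPM in con-named libraries, a log2 fold change of 0.21 ± 0.13 that did not pass (adjusted p = 0.316, edgeR). The ratio of Kcnd2 to Kcnd3 in FPKM had a median of 2.56 (1.85 to 3.71) in HF-named and 3.20 (2.60 to 3.43) in con-named libraries, and 3 HF-named libraries lay below and 1 above all con-named ones. Kcnip2 was at 190.0, 205.9 and 229.8 CPM in HF-named and 185.8, 216.1 and 222.2 CPM in con-named libraries (log2 fold change -0.03 ± 0.06, adjusted p = 0.806, edgeR). These ranges overlapped. In FPKM, which is at raw library totals, Kcnip2 was at 55.4, 57.2 and 59.7 in HF-named and 58.2, 63.4 and 68.1 in con-named libraries, and with library totals in place of TMM scaling it was called lower (log2 fold change -0.14, adjusted p = 0.0334, edgeR). Kcna4, at a mean of 0.392 FPKM, had a log2 fold change of -0.30 ± 0.21 (adjusted p = 0.368, edgeR).

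The rapid and slow delayed rectifiers, whose genes are known from the human long QT syndromes, are built from Kcnh2 (rapid) and from Kcnq1 with its small membrane partner Kcne1 (slow). Kcnh2 and Kcne1 fell, and Kcnq1 did not pass. Kcnh2 (chromosome 5, 24319589 to 24351604, minus strand) was at 69.7, 84.8 and 88.7 CPM in HF-named libraries, against 89.0, 99.7 and 106.4 CPM in con-named libraries. No HF-named library reached the lowest con-named one, and the gap between 88.7 and 89.0 CPM was small beside the spread within either group. The log2 fold change was -0.27 ± 0.06 (0.832-fold; edgeR adjusted p = 0.0124), and the call held with any 1 library left out (adjusted p up to 0.0305).

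Kcne1 (chromosome 16, 92345982 to 92359468, minus strand) was at 2.24, 3.56 and 5.92 CPM in HF-named libraries, against 3.96, 7.90 and 8.21 CPM in con-named libraries. Only 4 HF-named libraries lay below all con-named ones: replicate 5 at 4.65 CPM and replicate 3 at 5.92 CPM were above con-named replicate 1 at 3.96 CPM, and the next con-named library stood at 5.90 CPM. The log2 fold change was -0.84 ± 0.21 (0.557-fold; edgeR adjusted p = 0.0147), and the call held with any 1 library left out (adjusted p up to 0.0347). Kcnq1 was at 32.0, 38.7 and 45.1 CPM in HF-named and 29.4, 36.7 and 40.9 CPM in con-named libraries (log2 fold change 0.10 ± 0.09, adjusted p = 0.496, edgeR). The ratio of Kcnq1 to Kcne1 in FPKM had a median of 8.0 (4.96 to 12.8) in HF-named and 3.97 (3.32 to 5.83) in con-named libraries, with 5 HF-named libraries above all con-named ones, and no test was made of it.

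In the mouse, Kcne1 is also known from the conduction system. Of 5 such markers, all tested, the pacemaker channel Hcn4 was higher (log2 fold change 0.36 ± 0.10, adjusted p = 0.0252), the gap junction gene Gja5 was lower (-0.40 ± 0.12, adjusted p = 0.0336), and Cntn2, Tbx3 and Cacna1g did not pass (all edgeR). The call of Gja5 was lost without HF-named replicate 2, 4 or 5 or con-named replicate 2, 4 or 5 (adjusted p up to 0.0782, edgeR). Cntn2 had a median of 2.14 CPM (0.732 to 8.44) in HF-named and 7.89 CPM (4.06 to 12.9) in con-named libraries, at a log2 fold change of -1.10 ± 0.45 (adjusted p = 0.112, edgeR). The summed level of the 5 markers ran from 48.6 to 64.5 CPM in HF-named and from 44.9 to 71.7 CPM in con-named libraries. The part of conduction tissue in the result for Kcne1 was not tested, and in whole tissue fewer cells of a type and less RNA per cell cannot be told apart.

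The slow delayed current of the mouse ventricle is carried in part by Kcna5 pores, and the subunits Kcnv2 and Kcng2 make no channel alone but join other pore subunits and change their gating. Kcnv2 (chromosome 19, 27322588 to 27337179, plus strand) rose: it had 16.4, 24.7 and 29.1 CPM in HF-named libraries, against 13.1, 17.7 and 20.5 CPM in con-named libraries, and 5 HF-named libraries lay above all con-named ones. The log2 fold change was 0.50 ± 0.14 (1.41-fold; edgeR adjusted p = 0.0261). This call was lost without HF-named replicate 4, 5 or 6 or con-named replicate 2, 4 or 5, with adjusted p from 0.0507 to 0.0662, and with the replicate number as a block (adjusted p = 0.0643, edgeR).

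Kcng2, the most abundant voltage-gated member, was at 64.3, 71.1 and 75.9 CPM in HF-named and 59.7, 63.9 and 74.0 CPM in con-named libraries (log2 fold change 0.12 ± 0.06, adjusted p = 0.217, edgeR). Kcna5 was at 16.6, 29.8 and 34.9 CPM in HF-named and 28.5, 29.7 and 32.5 CPM in con-named libraries (log2 fold change -0.09 ± 0.12, adjusted p = 0.660, edgeR). HF-named replicate 6 held its lowest value, and the HF-named spread was wider than the con-named one. Kcna2, a further pore of the mouse delayed currents, had a log2 fold change of 0.13 ± 0.17 (adjusted p = 0.670, edgeR).

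Kcnc1 and Kcna1 had the largest fold changes of all members and were among the least abundant. Both are best known from neurons, Kcnc1 from cells that fire at high rates and Kcna1 from axons. Kcnc1 (chromosome 7, 46396497 to 46438704, plus strand) averaged 0.122 FPKM and was counted 11 to 46 times in HF-named and 9 to 14 times in con-named libraries. It had 0.731, 1.61 and 3.33 CPM in HF-named libraries, against 0.542, 0.654 and 0.734 CPM in con-named libraries. HF-named replicate 1 lay within the con-named range, just below its top of 0.734 CPM, and the other HF-named libraries lay above it and were spread widely. This gave a log2 fold change of 1.39 ± 0.32 (2.62-fold; edgeR adjusted p = 0.0105), and a filter of 1 CPM in 6 libraries removed the gene before testing.

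Kcna1 (chromosome 6, 126640397 to 126646384, minus strand) averaged 0.239 FPKM and had 1.06, 1.55 and 2.06 CPM in HF-named libraries, against 0.422, 0.778 and 1.16 CPM in con-named libraries. All HF-named libraries except replicate 1 lay above the con-named range. The log2 fold change was 1.0 ± 0.23 (2.0-fold; edgeR adjusted p = 0.0107), and the calls of Kcna1 and Kcnc1 held with any 1 library left out (adjusted p up to 0.0290 and 0.0274). Kcna6 and Kcna5 are its neighbours, 61.9 kb and 105 kb away: Kcna6 had a log2 fold change of 0.33 ± 0.21 (adjusted p = 0.322, edgeR) but shares 39.6% of its exon bases with a gene on the opposite strand. Of the 7 Schwann cell and neuronal markers, none of the 4 tested passed with edgeR. Their summed level ran from 11 to 14.8 CPM in HF-named and from 10.3 to 15.8 CPM in con-named libraries, with Th at 0 in all HF-named libraries and Snap25 at no more than 0.110 CPM in any library.

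**Figure D3:**
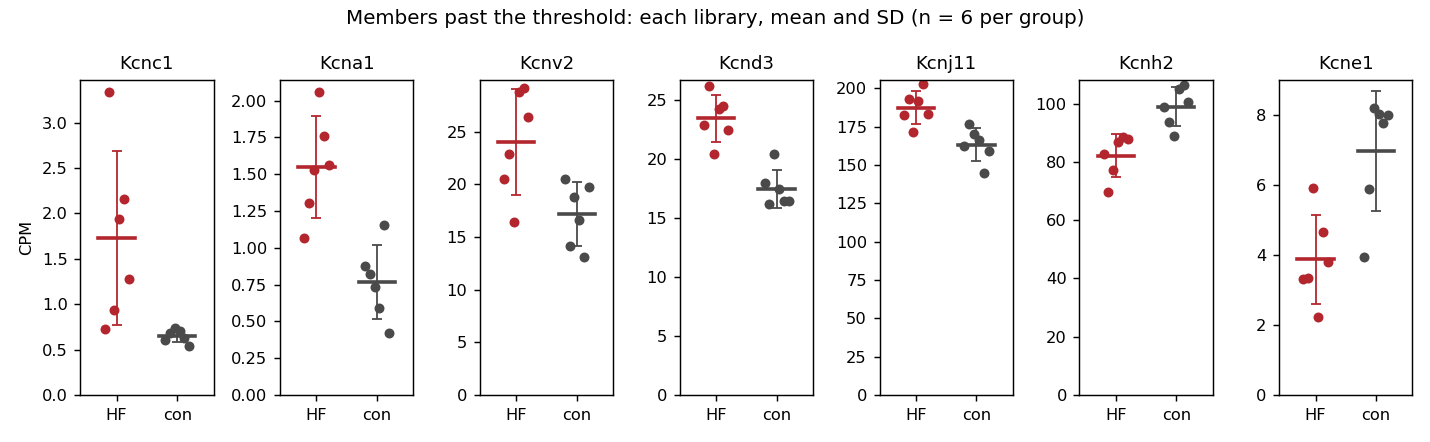
CPM of the 7 members with an adjusted p under 0.05, each point a library, with mean and SD (n = 6 per group), HF-named on the left and con-named on the right, each axis starting at 0. The groups do not overlap for Kcnd3 and Kcnh2, and Kcnc1 varies most among the HF-named libraries, from 0.731 to 3.33 CPM.

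The 250 bases before the RefSeq start (GRCm38.p6, the assembly of mm10) are printed for Kcnd3, Kcnh2 and Kcnc1. Kcnd3 and Kcnh2 were the members whose groups did not overlap in CPM, and Kcnc1 had the largest fold change. Of the 7 called members these 3 have a window in the RefSeq promoter table, as do 32 of the 47 members. Motifs were searched as letters on both strands: the E-box CACGTG, in 6.02% of all 32817 windows of this length, the GC box GGGCGG, in 32.7%, the TATA box TATAAA, in 12.4%, the T-box half-site AGGTGT, in 11.8%, and the Iroquois site ACANNTGT, in 6.32%. Capitals mark the GC box on either strand. The windows read 5′ to 3′ on the strand of the gene.
Kcnd3, chr3:105451640-105451889, plus strand: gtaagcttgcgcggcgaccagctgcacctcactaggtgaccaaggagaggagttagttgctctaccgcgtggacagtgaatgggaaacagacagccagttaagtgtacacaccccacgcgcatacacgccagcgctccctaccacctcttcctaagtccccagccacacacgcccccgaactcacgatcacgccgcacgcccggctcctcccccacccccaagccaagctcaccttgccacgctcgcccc
Kcnh2, chr5:24329592-24329841, minus strand: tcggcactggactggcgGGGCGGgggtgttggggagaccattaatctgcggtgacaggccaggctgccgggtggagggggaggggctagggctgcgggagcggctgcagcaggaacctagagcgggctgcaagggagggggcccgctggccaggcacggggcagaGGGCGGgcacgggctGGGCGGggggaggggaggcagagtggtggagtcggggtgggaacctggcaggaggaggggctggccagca
Kcnc1, chr7:46396218-46396467, plus strand: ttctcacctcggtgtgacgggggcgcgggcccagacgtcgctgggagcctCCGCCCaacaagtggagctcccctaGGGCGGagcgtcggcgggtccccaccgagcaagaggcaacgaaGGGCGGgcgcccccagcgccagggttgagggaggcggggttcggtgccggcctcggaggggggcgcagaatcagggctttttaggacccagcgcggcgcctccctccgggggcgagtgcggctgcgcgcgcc

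The GC box was the only one of the 5 motifs found. Kcnh2 held it 3 times, from 233 to 228, from 85 to 80 and from 70 to 65 bases before the start, and Kcnc1 held it 3 times, from 200 to 195, from 175 to 170 and from 132 to 127 bases before the start. Kcnd3 held none of the motifs in this window. The GC content was 73.6% for Kcnh2, 74.4% for Kcnc1 and 62.8% for Kcnd3, where the median of all windows was 52.4%. The Kcnh2 window lies in an intron of the gene as GENCODE M21 annotates it, just before the start of a shorter transcript. A match of letters is a description and no evidence of binding.

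Among the remaining voltage-gated members, none passed with edgeR. The log2 fold change of Kcna7 was 0.06 ± 0.11. Negative values were -0.11 ± 0.24 for Kcnd1, -0.10 ± 0.21 for Kcnh7 and -0.03 ± 0.32 for Kcnc2. The last of these was counted 10 or more times in only 6 libraries, so its standard error was wide.

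Of the inward rectifiers, Kcnj11 and Kcnj8 form the pores of ATP-sensitive channels, which open when cellular ATP is low, Kcnj11 mainly in cardiac muscle and Kcnj8 mainly in vascular smooth muscle and pericytes. Kcnj11 rose by a small amount. It lies on chromosome 7 (46093953 to 46100764, minus strand), 295.7 kb from Kcnc1, and had 171.3, 187.3 and 202.6 CPM in HF-named libraries, against 144.6, 164.3 and 176.8 CPM in con-named libraries. The 5 HF-named libraries other than replicate 3 lay above all con-named ones. On the log2 scale the fold change was 0.20 ± 0.05 (1.148-fold; edgeR adjusted p = 0.0240). This call was lost without HF-named replicate 2, 4 or 5 or con-named replicate 5 or 6 (adjusted p from 0.0521 to 0.0661), with library totals in place of scaling factors (log2 fold change 0.08, adjusted p = 0.229), with no filter (adjusted p = 0.0670) and with the replicate number as a block (adjusted p = 0.0751, all edgeR).

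Kcnj8 did not pass: it had 47.3, 52.2 and 58.2 CPM in HF-named and 48.6, 54.9 and 58.8 CPM in con-named libraries (log2 fold change -0.05 ± 0.06, adjusted p = 0.621, edgeR). The ratio of Kcnj11 to Kcnj8 in FPKM had a median of 2.35 (2.29 to 2.97) in HF-named and 2.13 (1.83 to 2.37) in con-named libraries, with 3 HF-named libraries above all con-named ones. Sulfonylurea receptors complete these channels, and neither passed: Abcc9, the ventricular and vascular form at 44.3 FPKM, had a log2 fold change of 0.11 ± 0.08 (adjusted p = 0.414), and Abcc8, at 6.78 FPKM, of -0.01 ± 0.07 (adjusted p = 0.956, both edgeR). None of the 6 tested pericyte and smooth muscle markers passed with edgeR, with the smallest adjusted p of 0.0504 for Rgs5, and their summed level, with Tagln, ran from 1018 to 1223 CPM in HF-named and from 848 to 1051 CPM in con-named libraries. Rgs5 alone made most of these sums, at 691 to 753 CPM in HF-named and 537 to 709 CPM in con-named libraries. The part of these markers in the values of Kcnj8, Abcc9 and Kcnmb1 was not tested.

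Kcnj3 and Kcnj5 together form the channel opened by acetylcholine, best known from atria and nodes. Both had a positive log2 fold change that did not pass. Kcnj5 was at 69.2, 88.3 and 102.2 CPM in HF-named and 71.3, 76.1 and 83.7 CPM in con-named libraries (log2 fold change 0.19 ± 0.07, adjusted p = 0.0914, edgeR). HF-named replicate 3 had the lowest of all these values, and without it Kcnj5 passed (log2 fold change 0.25, adjusted p = 0.00777, edgeR). HF-named replicate 1, which had the highest levels of the atrial markers, also had the highest Kcnj5, and without it the log2 fold change of Kcnj5 was 0.15 (adjusted p = 0.187, edgeR). Kcnj3 was at 44.2, 63.7 and 70.7 CPM in HF-named and 42.1, 52.7 and 63.7 CPM in con-named libraries (0.20 ± 0.11, adjusted p = 0.241, edgeR), and shares 31.1% of its exon bases with an antisense gene.

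The strong inward rectifiers Kcnj2, Kcnj12 and Kcnj14 set the resting potential, and none passed with edgeR. Kcnj2 had 43.8, 51.2 and 71.6 CPM in HF-named and 38.4, 47.2 and 52.7 CPM in con-named libraries (log2 fold change 0.22 ± 0.11, adjusted p = 0.192). Kcnj12 had a log2 fold change of -0.08 ± 0.13 and Kcnj14 of 0.13 ± 0.26. Kcnj15, a weaker rectifier better known from epithelia, had -0.17 ± 0.24. Kcnj4, also of the strong rectifiers, was under the count minimum, with 65 counts in all libraries together.

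Two-pore channels pass background current at all voltages. Kcnk3, a background channel blocked by acid, was among the most abundant members, at 215.5, 233.5 and 267.9 CPM in HF-named and 199.9, 218.5 and 245.0 CPM in con-named libraries (log2 fold change 0.11 ± 0.06, adjusted p = 0.253, edgeR). Kcnk2, which opens on membrane stretch, was at 2.16, 2.52 and 3.19 CPM in HF-named and 2.53, 3.45 and 3.95 CPM in con-named libraries (-0.34 ± 0.15, adjusted p = 0.153, edgeR), and shares 12.2% of its exon bases with an antisense gene. Kcnk6 was at 4.13, 5.05 and 6.16 CPM in HF-named and 4.46, 5.23 and 5.80 CPM in con-named libraries (-0.03 ± 0.12, adjusted p = 0.886, edgeR). The groups overlapped for all of these.

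The remaining two-pore members were near the floor. Kcnk5 had a log2 fold change of 0.25 ± 0.28 (adjusted p = 0.609, edgeR). Kcnk4 and Kcnk13 were removed by the filter on low counts, as was the auxiliary subunit Kcnip1. With the membership minimum as the filter for all features, their log2 fold changes were -0.21 ± 0.41 for Kcnk4, 0.34 ± 0.32 for Kcnk13 and 0.36 ± 0.34 for Kcnip1, none past the threshold (adjusted p from 0.524 to 0.795, edgeR). None of these 3 was counted more than 15 times in any library.

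Of the calcium-activated class, the small-conductance channels Kcnn1 and Kcnn2 were the most abundant. Kcnn1 was at 15.5, 17.4 and 18.5 CPM in HF-named and 13.4, 16.5 and 19.1 CPM in con-named libraries (log2 fold change 0.06 ± 0.08, adjusted p = 0.689, edgeR). Kcnn2 was at 12.2, 15.6 and 17.9 CPM in HF-named and 11.7, 14.7 and 17 CPM in con-named libraries (0.11 ± 0.10, adjusted p = 0.507, edgeR). The groups overlapped for both. Kcnn3 had 0.15 ± 0.22 and Kcnn4, the intermediate-conductance channel of blood and vascular cells, had 0.04 ± 0.33.

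The sodium-activated relatives Kcnt2 and Kcnt1 are counted with this class. Kcnt2 was at 2.10, 3.47 and 4.52 CPM in HF-named and 3.48, 4.39 and 5.66 CPM in con-named libraries, and its log2 fold change of -0.43 ± 0.17 did not pass (adjusted p = 0.109, edgeR). Of the alternatives run, it passed with library totals alone (log2 fold change -0.55, adjusted p = 0.0405, edgeR), a scaling that moved the median of all features to -0.13. Kcnt1 had -0.11 ± 0.21. The large-conductance pore Kcnma1, of smooth muscle, was under the count minimum with 52 counts in all libraries together, while its smooth muscle partner Kcnmb1 was a member at 1.33, 2.16 and 3.18 CPM in HF-named and 1.77, 2.37 and 2.75 CPM in con-named libraries (-0.03 ± 0.20, adjusted p = 0.949, edgeR).

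The other auxiliary subunits did not pass with edgeR. Kcne4, which inhibits some voltage-gated pores, was at 2.94, 3.87 and 4.71 CPM in HF-named and 3.07, 3.415 and 4.45 CPM in con-named libraries (log2 fold change 0.11 ± 0.14, adjusted p = 0.645). Kcnip3, a calcium-binding relative of Kcnip2, had -0.21 ± 0.15 (adjusted p = 0.377). The cytosolic beta subunits Kcnab1 and Kcnab2 had 0.42 ± 0.24 (adjusted p = 0.253) and 0.10 ± 0.16. Kcne1 was thus the 1 auxiliary subunit of 7 tested that passed.

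**Figure D4:**
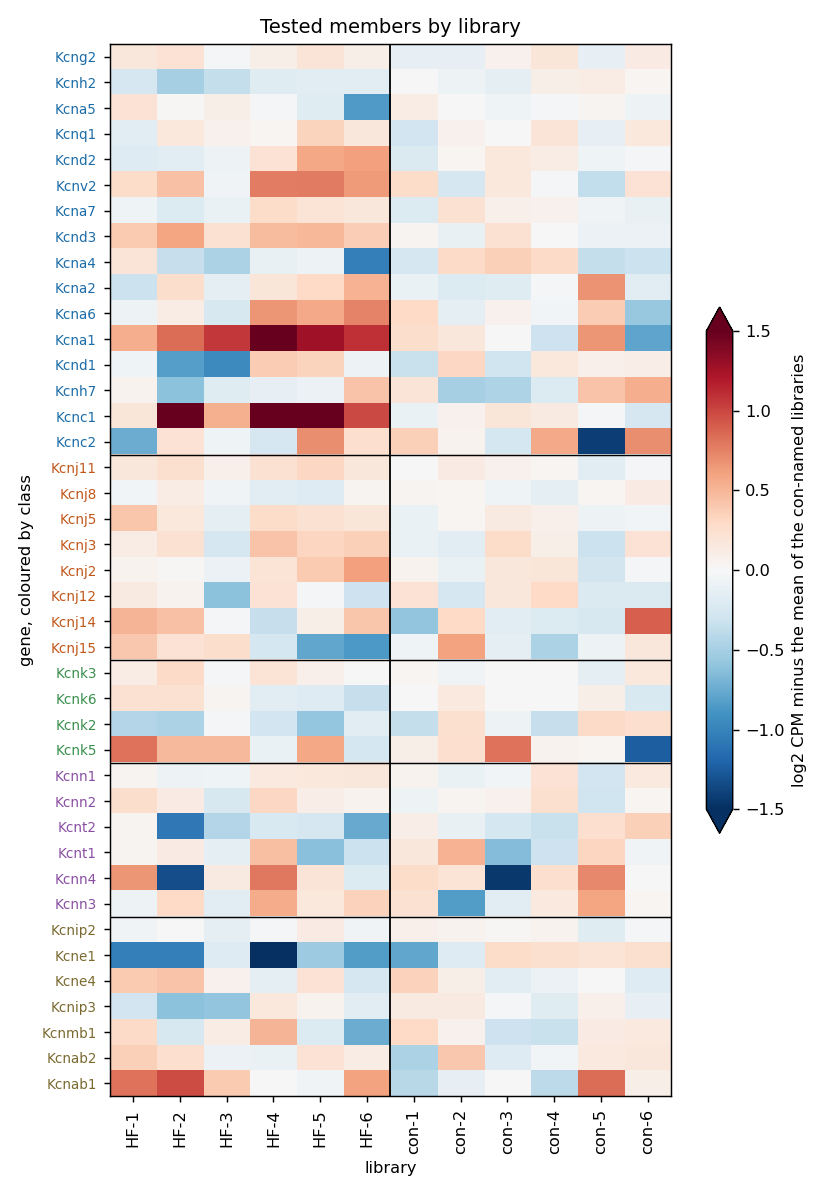
Log2 CPM of 41 of the 44 tested members in each library, relative to the mean of the con-named libraries, with genes grouped by class (colour of the name) and HF-named libraries to the left; colours saturate at 1.5. Kcna1 and Kcnc1 are raised and Kcne1 is lowered in most HF-named libraries, and many rows vary within a group.

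Within the HF-named group several members differed between the libraries with larger and those with smaller totals. HF-named replicates 4 to 6 held 18105305 to 22048689 counts, with 25.5 to 27.2% of them mitochondrial, and replicates 1 to 3 held 14443186 to 15150318 counts, with 23.9 to 24.6% mitochondrial. For 11 of the 44 tested members (25.0%) the 3 deeper libraries all lay above the other 3 in CPM, and for 3 (6.82%) they all lay below, where 8.93% and 7.98% of all features did so. Among the 11 are Kcnd2, Kcnv2, Kcnj2, Kcnj3, Kcnh2, Kcna7, Kcna6, Kcna1, Kcnn1 and Kcnip3, and the 3 are Kcna5, Kcnj15 and Kcnk6. Kcnd2 was at 34.0 to 44.8 CPM in the deeper and 25.4 to 27.7 CPM in the other HF-named libraries, against 25.1 to 32.5 CPM in con-named libraries, so the deeper ones lay above all con-named libraries and the others within their range.

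Kcnv2 was at 26.4 to 29.1 CPM in the deeper and 16.4 to 22.9 CPM in the other HF-named libraries, against 13.1 to 20.5 CPM in con-named libraries. Its call was lost when any of the deeper 3 was left out, and also without con-named replicate 2, 4 or 5. Kcnj2 was at 53.9 to 71.6 CPM in the deeper and 43.8 to 48.5 CPM in the other HF-named libraries, against 38.4 to 52.7 CPM in con-named libraries. Kcnh2 was at 86.8 to 88.7 CPM in the deeper and 69.7 to 82.8 CPM in the other HF-named libraries, so its lower values were in the shallower ones and all were below the con-named range. Kcna5 ran the other way, at 16.6 to 29.3 CPM in the deeper and 30.4 to 34.9 CPM in the other HF-named libraries. Among the con-named libraries, replicate 2 held the most counts (19073998) and replicate 3 the fewest (14647162). Replicate 2 was the lower of these for Kcnd2 (29.8 against 32.5 CPM), Kcnv2 (14.2 against 18.8 CPM) and Kcnj2 (43.6 against 52.3 CPM). It was the higher for Kcnh2 (93.7 against 89.0 CPM) and Kcna5 (29.8 against 28.8 CPM). Mitochondrial transcripts took 20.95% of counts in con-named replicate 2 and 22.6% in replicate 3. Between these libraries the deeper thus had the lower mitochondrial share, whereas the deeper HF-named libraries had the higher. The part of depth or of the mitochondrial share in these values was not tested.

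**Figure D5:**
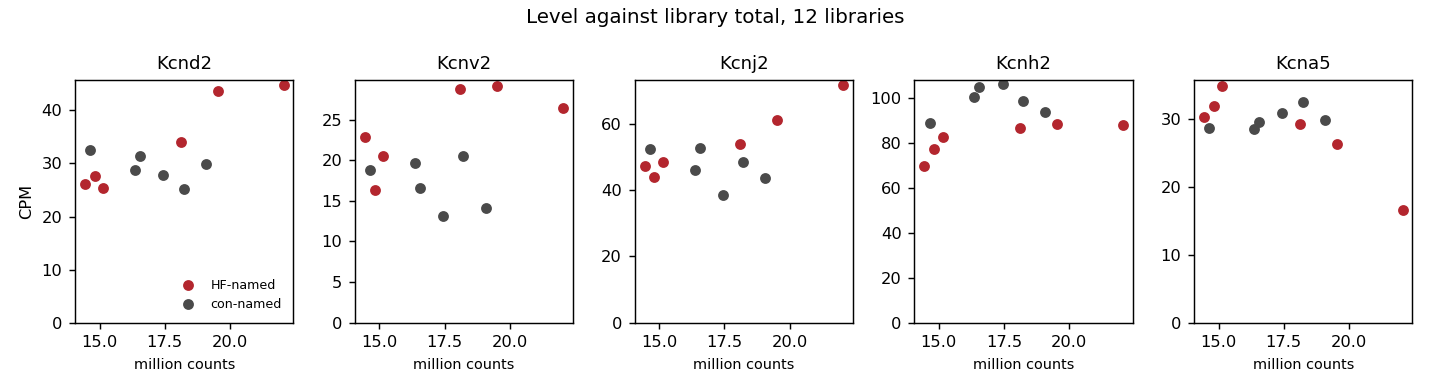
CPM of 5 members against the total counts of each library, HF-named in red and con-named in grey. Among the HF-named libraries the 3 with the largest totals lie above the other 3 for Kcnd2, Kcnv2, Kcnj2 and Kcnh2 and below them for Kcna5.

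Genes known to act with potassium channels were read from lists chosen for this tissue, of which 25 of 30 were tested: 3 rose and 1 fell, a share near that of all features tested, of which 8.28% were called higher and 5.05% lower. Akap9, a scaffold that ties protein kinase A to the Kcnq1 channel, was at 55.5, 63.2 and 67.8 CPM in HF-named and 46.8, 51.1 and 57.8 CPM in con-named libraries (log2 fold change 0.28 ± 0.06, adjusted p = 0.0100, edgeR). None of the other partner proteins tested passed, among them Dlg1 (0.15 ± 0.06, adjusted p = 0.0812) and Cav3 (-0.16 ± 0.07, adjusted p = 0.154, all edgeR). Of the hyperpolarization-activated channels, Hcn4 rose as given above, and its call was lost without HF-named replicate 2 or 4 (adjusted p up to 0.0585, edgeR).

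Of 12 transcription factors known to act on cardiac potassium channel genes, Tbx20 rose and Irx3 fell. Tbx20 was at 97.6, 108.1 and 120.4 CPM in HF-named and 85.7, 89.5 and 96.8 CPM in con-named libraries (log2 fold change 0.26 ± 0.05, adjusted p = 0.00527, edgeR). Its groups did not overlap in CPM, with HF-named above, as in 3.41% of all features. In FPKM they ran from 8.25 to 9.19 in HF-named and from 7.22 to 8.74 in con-named libraries, and overlapped. Irx3, a factor of the conduction system, was at 19.97, 23.1 and 32.5 CPM in HF-named and 31.2, 34.0 and 39.6 CPM in con-named libraries (-0.50 ± 0.11, adjusted p = 0.00696, edgeR). Irx5, known in the mouse to repress Kcnd2, had -0.39 ± 0.21 (adjusted p = 0.244), and Klf15, known in the mouse to act on Kcnip2, had 0.22 ± 0.15 (adjusted p = 0.347, both edgeR). Any link between these factors and the members was not tested.

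Some markers of other cells of the ventricle passed the test, and most did not. Of 5 fibroblast markers 2 fell (Dcn and Tcf21), with summed levels of 326 to 396 CPM in HF-named and 415 to 526 CPM in con-named libraries. Dcn alone made most of these sums, at 202 to 259 CPM in HF-named and 279 to 347 CPM in con-named libraries. Pdgfra, Col1a1 and Lum did not pass, and their groups overlapped. Of 5 macrophage markers 2 fell (Csf1r and Lyz2), with sums of 134 to 185 CPM in HF-named and 157 to 226 CPM in con-named libraries, and of 5 endothelial markers 1 fell (Kdr), with sums of 842 to 1327 CPM in HF-named and 1065 to 1397 CPM in con-named libraries. Of 6 cardiomyocyte markers Ryr2 rose and Tnnt2 and Tnni3 fell, with sums of 50617 to 57232 CPM in HF-named and 48093 to 54992 CPM in con-named libraries. The calls of Dcn, Lyz2, Ryr2 and Tnni3 held when any 1 of the 12 libraries was left out, whereas those of Tcf21 and Csf1r held in 4 of these 12 fits each (adjusted p up to 0.0864 for Tcf21 and 0.0781 for Csf1r), that of Kdr in 3 (up to 0.101) and that of Tnnt2 in 2 (up to 0.1000, all edgeR). The part of these markers in the members' values was not tested.

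In the authors' deposited table of group differences, 7 members had an adjusted p under 0.05, 5 higher and 2 lower, the same 7 genes in the same direction as in the fit here. Of 33183 genes with a value there, 5.11% passed. These include many genes that the filter on low counts used here, which kept 15114 features, removes. That share is therefore no measure to set the members against, and 13.3% of the features kept here were called. Its fold changes have the same sign as the fit here for all 44 tested members, and its HF column matches the mean of the HF-named libraries within 0.0487% for every member. The authors' deposited table thus rests on the library names, which does not settle what the libraries were.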

How the data were processed

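Poly-A-selected RNA of ventricular tissue gave 12 libraries, per the labels' protocols. Raw read counts and FPKM of each gene and library were deposited in 1 table. Each FPKM column deposited by the authors equals count over a fixed gene length and the library total, and it served to compare levels between genes. A second table that the authors deposited holds, for each group, the mean of scaled counts as a signal, with log2 fold changes and p-values. The submitters' processing notes name HISAT2 2.0.5, cutadapt 1.15, HTSeq 0.9.1 and the build mm10 with no roles. Annotation release and strand setting: not given in the sources used here. Among the members, 17 share exon bases with another gene in GENCODE M21.

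Groups and columns were matched by the library names. After filterByExpr, which kept 15114 of 54949 features, counts were fitted in R 4.3.3 with edgeR 4.0.16 (TMM scaling, quasi-likelihood test, two-sided, group as sole covariate; limma 3.58.1), with Benjamini-Hochberg adjustment over all features tested, at a threshold of 0.05. A standard error is |log2 fold change| over the square root of F. Among the members, 3 are counted but not reported singly or drawn here. CPM is at the TMM-adjusted library size. The floor of 3 counts covers counting error only, while SDs and standard errors hold the spread between libraries. The steps were tested on simulated data. Members and gene lists were chosen with earlier results of these data known. Lowest, median and highest values are given for members past the threshold and for the 3 of highest FPKM in each class, and of the partner genes those that passed are named. Further members and partners with such values were chosen after their values were seen.

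The 30 pairs of libraries within a group differed by more than sampling noise (chi-square per degree of freedom 4.28 to 16.2). Replicate numbers come from the library names, and same-numbered libraries did not deviate together (correlations -0.16 to 0.09). Alternatives were RLE size factors, library totals, other filters, the replicate number as a block, limma-voom, DESeq2 1.42.0, no mitochondrial transcripts, a stricter membership and each library left out in turn, and, added after the data were seen, no unnamed features.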

Additional observations from a re-analysis of the deposited data

Results flagged for a closer look

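Of 94 groups of 6 libraries looked at, for 47 members in 2 groups, 2 held a library far from the others, where chance flags about 1 in 20. In the con-named group, replicate 5 was highest for Kcna2, at 6.63 CPM, with the other con-named libraries between 3.63 and 4.07 CPM. The same library was highest for Kcnab1, at 2.63 CPM, with the other con-named libraries between 1.10 and 1.57 CPM. Neither gene passed the test, at log2 fold changes of 0.13 for Kcna2 and 0.42 for Kcnab1.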

How the results depend on the processing

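With a library left out, each in turn, 5 to 8 members were called, with 3 to 6 higher and 2 lower, beside 7, 5 and 2 in all libraries. RLE, limma-voom, DESeq2, the membership filter, and fits without mitochondrial transcripts or unnamed features each called the same 7. With library totals 8 members were called, 4 of them lower, the gains being Kcnip2 (log2 fold change -0.14, adjusted p = 0.0334) and Kcnt2, and over all features 3065 were called, 483 higher and 2582 lower. With the replicate block, 5 members were called, 3 of them higher, without Kcnj11 and Kcnv2, and 1131 features in all; it changed no other call of a member. Same-numbered libraries did not correlate, and 1 of 6 correlated best with its own number. Without a filter 6 members were called and 1562 features, and a stricter membership of 37 genes held 5 calls. Kcnc1 and Kcna1, which had the largest fold changes, were outside that stricter membership. Over all features 1355 to 2550 were called with a library left out.

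The sign of 15 members, none of them called, differed in some setting. With library totals the log2 fold change was -0.0023 for Kcne4, -0.0219 for Kcnab2, -0.0568 for Kcnn1, -0.0105 for Kcnn2, -0.0819 for Kcnn4, -0.00322 for Kcnk3, -0.0215 for Kcnq1 and -0.0655 for Kcna7. Kcnc2 was at 0.0461 with limma-voom. With a library left out the ranges were -0.164 to 0.0249 for Kcna5, -0.229 to 0.0933 for Kcnc2, -0.233 to 0.000799 for Kcnd1, -0.227 to 0.0105 for Kcnh7, -0.144 to 0.00767 for Kcnj12, -0.0844 to 0.0303 for Kcnk6, -0.157 to 0.101 for Kcnmb1, -0.00646 to 0.105 for Kcnn1 and -0.121 to 0.191 for Kcnn4. The cause was not tested. Of 893 values of the members reported, over all settings, 848 kept direction and side of the threshold, 27 changed sign, 15 lost a call and 3 gained one. The depth leaves members under 1 FPKM with few counts and wide standard errors.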

Other observations

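The membership minimum of 10 counts in 3 libraries leaves a few genes on either side. Just inside were Kcnip1 with 3 such libraries and 93 counts in all, Kcnk4 with 4 and 98, Kcnk13 with 4 and 101, Kcnc2 with 6 and 125, and Kcnn4 with 8 and 127. Just outside were Kcnc4 with 2 and 77 counts, Kcnj16 with 1 and 138, Kcnab3 with 1 and 72, Kcnj4 with 1 and 65, and Kcnq5 with 1 and 62. In all 45 symbols were under the minimum, and 9 of these had no count in any library: Kcna10, Kcnb2, Kcnf1, Kcng3, Kcnk15, Kcnk16, Kcnmb2, Kcns2 and Kcnv1. At the depth of these libraries this does not show that the genes are silent.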
